A study of Mus musculus with 4 samples.

Results

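The genes described here encode the proteins of the cytosolic ribosome. They were chosen by name: every symbol that begins with Rps or Rpl and a digit, together with Rpsa, Rplp0, Rplp1 and Rplp2, without the Rps6k kinases and without names that carry a pseudogene suffix. This rule gave 87 members of 27998 genes, of which 34 carry a small subunit name and 53 a large subunit name. One of them, Rps19bp1, encodes a protein that binds a ribosomal protein and is no part of the ribosome. The rule used no measured value.

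Transcripts were counted as unique molecular identifiers (UMIs) in single blood cells of C57BL/6 mice that carried subcutaneous MC-38 tumors, a syngeneic colon carcinoma line. Blood was taken on day 18 after tumor challenge and enriched for CD3+ cells, and the mice were 6 to 8 weeks old when the experiments began. The Untreated group received no antibody, the PDL1 group anti-PD-L1 on days 10, 13 and 17, the OX40 group agonistic anti-OX40 with CpG on day 7, and the PDOX group both. The label of the OX40 group names OX40 alone, and the CpG comes from the study's regimen. Each group was 1 library, the number of mice behind it was not given in the sources used here, and library, mouse and treatment therefore cannot be told apart. No test between treatments was possible.

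A ribosome is built of a small subunit, which reads the mRNA, and a large subunit, which forms the peptide bonds, and each holds its own set of proteins around ribosomal RNA. Messengers of ribosomal proteins are among the most abundant of any growing or resting cell. Most begin with a tract of pyrimidines, by which nutrient and mTOR signaling sets their translation. Quiescent naive T cells keep a store of such messengers, and activated T cells enlarge their protein synthesis. A few members have a paralog in the genome: Rps27l, Rpl22l1, Rpl36al and Rpl7l1 are expressed in many tissues, Rpl10l and Rpl39l mostly in the testis, and Rpl3l mostly in muscle.

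Sequences near the start sites of a few members are shown because the pyrimidine tract is the sequence feature for which this gene class is known. They come from some of the members that fell in effector T cells and from the paralogs that stood apart. Each of those shown holds a run of at least 8 bases. Among the largest falls in CD8 cells, Rps28, whose longest run had 5 bases, and Rpl12, with 8, are not shown. Sequences come from RefSeq on build GRCm38.p6, on the transcribed strand from 5′ to 3′, and capitals mark the longest run of C and T between 30 bases before and 50 bases after the annotated start.
Rps27 (chr3:90213629-90213658, minus strand): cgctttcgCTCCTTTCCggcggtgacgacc
Rps27l (chr9:66946056-66946085, plus strand): cgcctccaCTCCTCTCCactcctccccgcc
Rpl36a (chrX:134585673-134585702, plus strand): ggctctagCCTCTCTCTTTCCgagctgcta
Rpl36al (chr12:69184018-69184047, minus strand): tctgttcgTCCCTTTCCTgttcggcgcgtg
Rpl35 (chr2:39005117-39005146, minus strand): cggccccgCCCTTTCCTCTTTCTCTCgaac
Rpl31 (chr1:39367825-39367854, plus strand): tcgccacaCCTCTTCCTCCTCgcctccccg
Rplp2 (chr7:141447638-141447667, plus strand): cgtcagcgTCTTCCTTTCgccgccggacgc
Rpl13a (chr7:45128722-45128751, minus strand): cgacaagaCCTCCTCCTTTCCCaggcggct

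Of the 87 members, 66 had a RefSeq start, and 50 of these (75.8%) held a run of at least 8 pyrimidines in this window, against 32.3% of all 27025 genes with a start. Counted from the annotated start, the run began at position −2 in Rps27, −22 in Rps27l, 28 in Rpl36a, 29 in Rpl36al, −7 in Rpl35, −18 in Rpl31, −5 in Rplp2 and 3 in Rpl13a, so that the bases printed for Rps27l, Rpl36a and Rpl36al do not include the annotated start. The run was 9 bases long in Rps27 and in Rps27l, 13 in Rpl36a, 10 in Rpl36al and 18 in Rpl35. The letters CCGGAAG, a sequence that ETS family factors bind, stood on either strand within the 300 bases around the start of 26 members (39.4%), against 9.93% of all genes. A match is a description of the letters only.

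The 4 libraries held between 2392650 and 4969885 UMIs, and 5299 of 5434 barcodes had at least 200 genes other than ribosomal, mitochondrial and hemoglobin genes and were kept. Of these cells, 2921 fell into 7 gates set by marker genes. A T cell needed a UMI of Cd3d, Cd3e or Cd3g, and was called naive by Ccr7, Lef1, Tcf7 and other genes of quiescent T cells, or effector by S100a4, S100a6, Lgals1, Id2 and others. The gates held 1466 naive CD8, 400 effector CD8, 520 naive CD4, 261 effector CD4, 65 NK, 115 B cell and 94 monocyte barcodes. The thinnest were effector CD4 cells of the Untreated library and NK cells of the PDL1 library, with 5 cells each. The authors purified T cells from the blood before sequencing, so the NK, B cell and monocyte barcodes are those that remained after this step. They also needed 0 UMIs of Cd3d, Cd3e and Cd3g. Whether they represent these cell types in blood was not tested. In the B cell gate Ighm was at 0 in all libraries. Klf2 and Ccr9, naive genes not used for gating, summed to 9.69 to 16.0 UMIs per 10000 in naive and 7.01 to 10.2 in effector CD8 cells. In CD4 cells they did not part the gates (9.48 to 15.5 and 5.28 to 13.6), and were higher in effector cells of the PDL1, OX40 and PDOX libraries. A list of 6 effector genes not used for gating summed to 23.0 to 34.3 and 190 to 587 in CD8, and 13.6 to 16.7 and 100 to 203 in CD4 cells. In all, 16 barcodes occurred in more than 1 library.

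Members made up a far smaller part of the UMIs of effector T cells than of naive T cells. In naive CD8 cells, the members' share of all UMIs was 47.4% in the Untreated, 48.8% in the PDL1, 51.0% in the OX40 and 49.0% in the PDOX library. In effector CD8 cells it was 34.5%, 26.1%, 29.8% and 26.7% in the same order. The Untreated value rests on 16 cells, whose median was 27.0% with an upper quartile of 41.2%, and it was 26.4% in the 7 cells of strict gates. Every effector value lay below every naive value, by a mean of 19.8 percentage points (SD 4.64, n = 4 libraries). An exact two-sided sign-flip test over the libraries gave p = 0.13, the smallest p that 4 libraries allow.

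The CD4 lineage had the same order. The share was 42.7%, 43.9%, 47.8% and 44.7% in naive CD4 cells of the Untreated, PDL1, OX40 and PDOX libraries, and 21.1%, 29.3%, 29.4% and 27.0% in effector CD4 cells. The mean difference was −18.1 points (SD 2.88, n = 4, exact p = 0.13), and the share was lower in effector cells of 4 of 4 libraries. The Untreated value of effector CD4 cells rests on 5 cells and 11364 UMIs.

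The lower share came with fewer member UMIs per cell and more UMIs of other genes. An effector CD8 cell held on average 1017 member UMIs, against 1652 in a naive CD8 cell, and 2473 UMIs of other genes against 1712 (means of 4 libraries). An effector CD4 cell held 765 member UMIs against 1270, and 2061 UMIs of other genes against 1559. Member UMIs per cell were lower and other UMIs higher in 4 of 4 libraries in both lineages (exact p = 0.13 each). UMIs per cell depend on capture as well as on the content of the cell, and the part of cell size was not tested. The gates also select on counts. An effector cell needed at least 5 UMIs of effector marker genes, and a naive cell at least 2 of naive marker genes. No marker gene is a member, so this cut can favor effector cells with more UMIs of other genes. Its part was not tested.

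**Figure D1:**
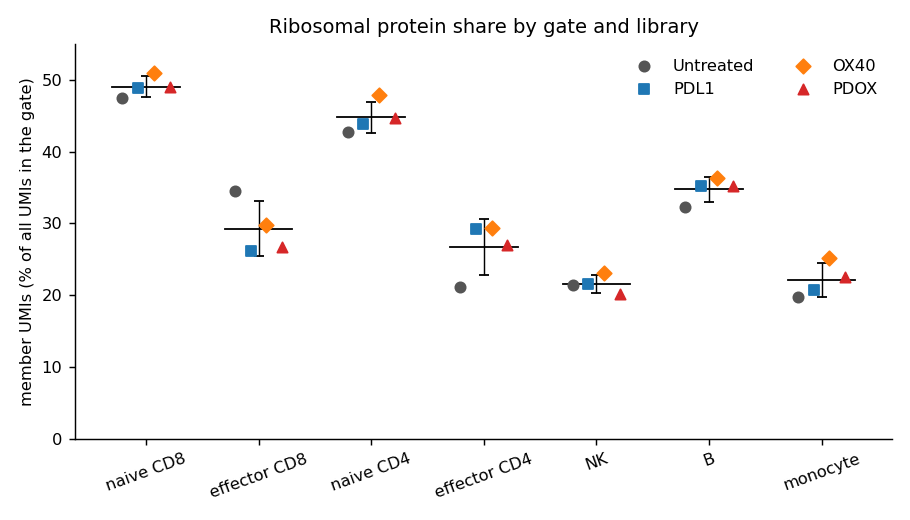
Share of all UMIs on the members (vertical axis, percent) in each gate (horizontal axis), with 1 symbol per library; the black line is the mean and the bar the SD over the 4 libraries. Naive CD8 cells sat between 47.4% and 51.0%, and effector CD8 cells between 26.1% and 34.5%.

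The lowest mean shares were those of NK cells and monocytes, although in the Untreated library effector CD4 cells, with 21.1%, were below NK cells. In NK cells the members held 21.4%, 21.5%, 23.1% and 20.2% of UMIs in the Untreated, PDL1, OX40 and PDOX libraries, and in monocytes 19.8%, 20.7%, 25.1% and 22.6%. B cells held 32.3%, 35.1%, 36.3% and 35.2%, below both naive gates in each library, and below effector CD8 cells in the Untreated library only. The mean was 21.5% ± 1.19 in NK cells, 22.05% ± 2.37 in monocytes and 34.7% ± 1.72 in B cells (SD, n = 4). Monocytes were below NK cells in the Untreated and PDL1 libraries and above them in the OX40 and PDOX libraries, without a test. The mean was 26.7% ± 3.89 in effector CD4 and 29.3% ± 3.86 in effector CD8 cells (exact sign-flip p = 0.75). Effector CD8 minus effector CD4 was 13.4 points in the Untreated library, with 16 and 5 cells. It was −3.16, 0.386 and −0.333 points in the PDL1, OX40 and PDOX libraries. Naive CD8 cells were above naive CD4 cells in each library, by 3.17 to 4.97 points.

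Single members were very unequal in UMIs. The assay counts 3′ ends, so that levels were not divided by transcript length. Among the 10 members with the most UMIs in naive CD8 cells were Rpl13, Rps27, Rpl13a, Rps19, Rplp0, Rps18, Rps29, Rps24 and Rps15a, with means between 122 and 99.1 UMIs per 10000. Rpl13 held 125, 119, 111 and 133 UMIs per 10000 in the Untreated, PDL1, OX40 and PDOX libraries, and Rps19, mutated in many patients with Diamond-Blackfan anemia, 111, 114, 109 and 122. Rps27 held 94.5, 116, 190 and 85.0, and thus differed more between libraries than Rpl13 or Rps19.

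At the other end, 3 members stayed under the filter of the T cell fit. Rpl10l had 0 of 16057436 UMIs of the kept cells, which allows up to 0.00187 UMIs per 10000 (3 counts). Rpl3l had 26 UMIs in all kept cells, none of them in T, NK or B cell gates and 10 in monocytes. Rpl39l had 31, of which 10 were in naive CD8 cells. With counts this low, levels cannot be compared between gates.

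Almost every member was lower in effector than in naive cells of both lineages. UMIs were summed per library and gate and tested with edgeR's quasi-likelihood test, with the library as a block, TMM scaling and Benjamini-Hochberg adjustment over all 4822 genes tested. Of 84 members tested, 81 were lower in effector CD8 cells, against 14.8% of all genes, and 1 was higher, against 14.4% of all genes. In CD4 cells 81 were lower, against 9.58% of all genes, and 1 was higher, against 9.42%. The median log2 change of the members was −1.19 in CD8 and −1.18 in CD4 cells, while that of all genes tested was −0.00 and −0.03. The 81 log2 changes ran from −0.53 to −1.73 in CD8 cells and from −0.53 to −1.78 in CD4 cells, with standard errors between 0.14 and 0.19.

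The size of these changes depends on the scaling, since members take up so much of each library. Without TMM factors, on the plain share of all UMIs, the median of all genes moved to 0.43 in CD8 and 0.40 in CD4 cells, that of the members was −0.77 and −0.65, and 79 and 78 members were lower. On that scale 1938 genes were higher and 310 lower in CD8 cells, against 696 and 716 with TMM, and 1287 higher and 231 lower in CD4 cells, against 454 and 462. Of the 84 members tested, 80 had fewer UMIs per 10000 in the effector cells of every library in the CD8 and 78 in the CD4 lineage.

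The members that fell most in CD8 cells were Rpl36a, Rps20, Rpl12, Rps28 and Rpl35. Rpl36a, a large subunit protein near the exit site for transfer RNA, held 31.1, 35.8, 40.1 and 33.3 UMIs per 10000 in naive CD8 cells of the Untreated, PDL1, OX40 and PDOX libraries and 17.96, 13.2, 16.996 and 10.7 in effector CD8 cells. The groups did not overlap, and the log2 change was −1.73 (SE 0.16, adjusted p = 2.0e-16, edgeR quasi-likelihood test with Benjamini-Hochberg adjustment). Rps20, a protein of the small subunit head, held 57.9, 62.5, 58.7 and 60.0 UMIs per 10000 in naive and 38.5, 24.1, 21.7 and 20.5 in effector CD8 cells. Its log2 change was −1.66 (SE 0.18). Rpl12, at the base of the stalk of the large subunit, fell by 1.60 on the log2 scale, Rps28 by 1.59 and Rpl35, near the exit of the peptide tunnel, by 1.54.

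In CD4 cells Rps29, Rps20, Rpl31 and Rpl36a had the largest falls. Rps29, a small protein that binds zinc, held 96.6, 91.3, 180 and 63.6 UMIs per 10000 in naive CD4 cells of the 4 libraries in the same order and 35.2, 44.7, 72.4 and 24.1 in effector CD4 cells. The OX40 library was the highest in both gates, and each effector value lay below the naive value of its own library. The log2 changes were −1.78 for Rps29, −1.75 for Rps20, −1.70 for Rpl31 and −1.67 for Rpl36a.

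The smallest falls in CD8 cells were those of Rpl36al, Rpl13a, Rpl29 and Rpl27, and in CD4 cells those of Rpl36al, Rpl29, Rpl27, Rpl24 and Rpl4. Rpl13a, which outside the ribosome represses messengers of inflammation, held 121, 122, 109 and 127 UMIs per 10000 in naive and 109, 90.5, 102 and 112 in effector CD8 cells, and its log2 change was −0.64 (SE 0.18). It was the member with the most UMIs in effector CD8, effector CD4 and NK cells. Rpl29 changed by −0.72 in CD8 and by −0.55 in CD4 cells, and Rpl27 by −0.72 and −0.79. Without TMM factors the calls of Rpl13a and Rpl36al in CD8 and of Rpl36al, Rpl29 and Rpl24 in CD4 cells were lost. The Rpl13a call in CD8 cells was also lost without the PDL1 (−0.59) or the OX40 library (−0.67), the Rpl29 call in CD4 cells without the PDL1 (−0.53) or the OX40 library (−0.59), and the Rpl36al call in CD4 cells without the OX40 library (−0.58).

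By subunit, 32 of 34 small subunit members and 49 of 50 large subunit members tested were lower in each lineage, against 14.8% of all genes in CD8 and 9.58% in CD4 cells. The median log2 change was −1.23 for the small and −1.12 for the large subunit in CD8 cells, and −1.29 and −1.12 in CD4 cells. The stalk proteins, which recruit translation factors, fell as well. Rplp0 changed by −1.11 and −1.22 in CD8 and CD4 cells, Rplp1 by −1.47 and −1.47, and Rplp2 by −1.28 and −1.22. Rpsa, which is also known as a laminin receptor, changed by −1.05 and −0.92.

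No member was called different between the lineages with all libraries. The test of CD8 change minus CD4 change called 0 of 84 members with edgeR at an adjusted p under 0.05 and 0 at an unadjusted p under 0.05, against 0.809% of all genes at the adjusted threshold. The differences ran from −0.33 to 0.29 on the log2 scale with a median standard error of 0.24, and with 45 members above and 39 below 0. In simulated counts this test recovered 23.5% of the planted changes, so it could miss many differences. The result depended on the setting. Without the Untreated library, which held 5 effector CD4 cells, 0 members were called, but 25 were at an unadjusted p under 0.05 and 80 of 84 were below 0, a larger fall in CD8 cells, with a median of −0.18. In cells thinned to 1500 UMIs 2 were called, 35 were at an unadjusted p under 0.05 and 79 of 82 were below 0, and with strict gates 71 of 84 were below 0. The median over all genes was −0.01 without the Untreated library and −0.07 in thinned cells, where that of the members was −0.25. The share of all genes at an unadjusted p under 0.05 was not counted in these settings. Without the PDL1, the OX40 or the PDOX library 66, 59 and 69 of 84 were above 0. The sign also depended on the scaling. Without TMM factors 68 of 84 were below 0. With library sizes taken from genes other than ribosomal, mitochondrial and hemoglobin genes, 78 of 84 were. Without the filter 55 of 85 were above 0, and without the replicate block 58 of 84.

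**Figure D2:**
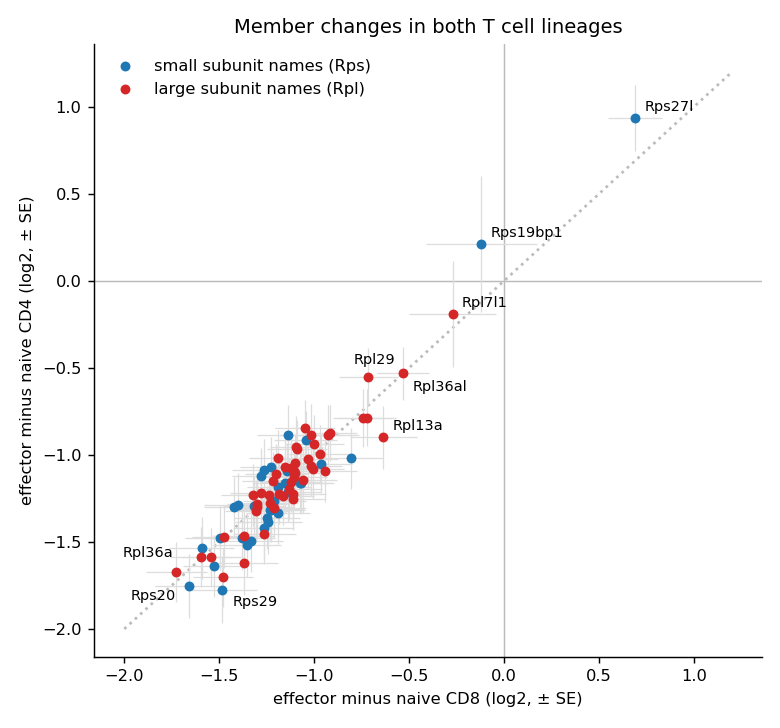
Log2 change from naive to effector cells of each member in CD8 (horizontal axis) and CD4 T cells (vertical axis), with standard errors as grey bars and a dotted line of equal change. Most members lie between −0.5 and −1.8 on both axes, and Rps27l is above 0 on both.

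Rps27l was the only member that rose in both lineages. It is a paralog of Rps27 known as a target of p53. In naive CD8 cells it held 0.765, 1.02, 1.17 and 1.12 UMIs per 10000 in the Untreated, PDL1, OX40 and PDOX libraries, and 1.08, 2.54, 2.26 and 2.55 in effector CD8 cells. Each effector value was above the naive value of its library, but the Untreated effector value lay within the naive range. The log2 change was 0.69 (SE 0.14, adjusted p = 4.5e-05, edgeR quasi-likelihood test with Benjamini-Hochberg adjustment). Its levels in naive CD4 cells were 0.888, 0.976, 1.13 and 0.817 UMIs per 10000, and those in effector CD4 cells 0.880, 2.80, 2.46 and 2.87. The Untreated library, with 5 effector cells, was the one without a higher level, and the log2 change was 0.93 (SE 0.19, adjusted p = 5.0e-05 in the same test).

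Rps27 itself, a small subunit protein with a zinc finger, went the other way, with log2 changes of −1.25 in CD8 and −1.36 in CD4 cells. Rps27l therefore took a larger part of the UMIs of the pair in effector cells. Its part was 0.803%, 0.876%, 0.609% and 1.30% in naive CD8 cells of the Untreated, PDL1, OX40 and PDOX libraries, and 1.61%, 4.50%, 1.97% and 5.46% in effector CD8 cells. It was larger in effector than in naive cells of 4 of 4 libraries in both lineages (exact two-sided sign-flip p = 0.13 each). The Untreated effector values rest on very few Rps27l UMIs. That of CD4 cells, 1.72% of the pair, comes from 5 cells with 11364 UMIs of all genes. That of CD8 cells comes from 16 cells with 55664 UMIs. In monocytes Rps27l made up 14.7%, 9.09%, 4.28% and 6.35% of the pair, the highest part of any gate in the Untreated, PDL1 and OX40 libraries, while in NK cells of the PDOX library it was 6.90%. Rps27l had only 23 UMIs in the NK cells of all libraries together.

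The pair of Rpl36a and Rpl36al moved apart in the same way. Rpl36a was the member with the largest fall in CD8 cells, and Rpl36al, a copy of it without introns, fell least, by 0.53 on the log2 scale in CD8 (SE 0.14) and in CD4 cells (SE 0.15). Rpl36al held 9.999, 10.9, 10.3 and 11.6 UMIs per 10000 in naive CD8 cells of the 4 libraries in the same order and 9.34, 9.45, 10.7 and 10.5 in effector CD8 cells, and these ranges overlap. Its part of the pair was between 20.5% and 25.8% in naive CD8 cells and between 34.2% and 49.5% in effector CD8 cells. In CD4 cells it was between 21.9% and 28.5% and between 32.1% and 50.5%. It was larger in effector cells of 4 of 4 libraries in each lineage (exact p = 0.13 each), by a mean of 17.5 points in CD8 and 16.6 in CD4 cells. Monocytes had the highest mean part, 53.6%.

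The pair of Rpl22 and Rpl22l1 did not part in this way. Rpl22 is needed for the development of T cells that carry the alpha-beta receptor, and Rpl22l1 is known to replace it where it is lost. Rpl22 changed by −1.10 in CD8 and −1.04 in CD4 cells, and Rpl22l1 by −1.23 and −1.27. Rpl22l1 made up a mean of 45.7% of the pair in naive and 42.7% in effector CD8 cells, a difference of −2.93 points (exact p = 0.375), and 44.4% and 40.1% in naive and effector CD4 cells.

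The remaining members tested did not pass the threshold. Rpl7l1, a paralog of Rpl7, had 211 UMIs in naive and 61 in effector CD8 cells, and its log2 change was −0.27 (SE 0.23) in CD8 and −0.19 (SE 0.31) in CD4 cells. Rps19bp1, the member that is no ribosomal protein, had 122 and 41 UMIs in naive and effector CD8 cells, and its log2 changes were −0.12 (SE 0.29) and 0.21 (SE 0.39).

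**Figure D3:**
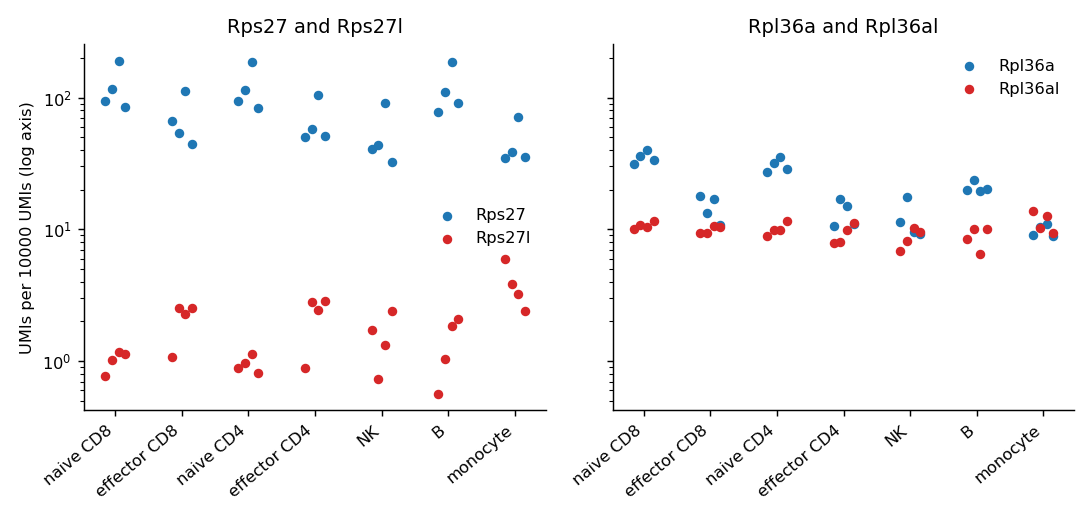
UMIs per 10000 UMIs (vertical log axis) of Rps27 and Rps27l (left) and of Rpl36a and Rpl36al (right) in each gate, with 1 point per library in the order Untreated, PDL1, OX40 and PDOX. Rpl36al stays between 6.51 and 13.8 in all gates while Rpl36a falls from 31.1 or more in naive CD8 cells to 17.96 or less in effector CD8 cells.

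Lists of NK cell and monocyte genes had higher sums in the effector gates as well. The NK cell markers that were not used for gating (Gzma, Prf1, Klrd1, Eomes and Tbx21) summed to between 2.50 and 3.14 UMIs per 10000 in naive and between 7.37 and 31.4 in effector CD8 cells, with 5 of 5 genes detected in each library. A list of 5 monocyte genes, among them Lyz2, Ly6c2, Cebpb and Fcer1g, summed to between 4.96 and 7.18 in naive and between 9.14 and 14.01 in effector CD8 cells. B cell markers summed to at most 0.0645 in both. In the CD4 lineage the NK cell markers summed to between 0.350 and 0.803 in naive and between 1.76 and 11.7 in effector cells, and the monocyte genes to between 0.308 and 1.78 and between 0.492 and 4.13. In NK cells the NK cell list summed to between 165 and 199. The paper reports Gzma as enriched in its CD8-T3 cluster of T cells. A higher sum of this list therefore does not by itself show NK cells in the T cell gates. Which cells these UMIs came from, and their part in the members' fall, was not tested.

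Other genes of translation were called lower in effector cells to a different extent from list to list, beside 14.8% of all genes in CD8 and 9.58% in CD4 cells. The lists were chosen with earlier results of these data known. Of the ribosomal proteins outside the name pattern, 3 of 3 tested fell in both lineages. Fau, which carries a ribosomal protein of the small subunit fused to a ubiquitin-like protein, changed by −0.75 in CD8 and −0.85 in CD4 cells, and Gnb2l1, the scaffold protein RACK1, by −1.01 and −0.97. Of 7 elongation factors, 5 fell in each lineage and none rose. Eef1a1, which brings transfer RNA to the ribosome, held 102, 94.5, 82.3 and 95.0 UMIs per 10000 in naive CD8 cells of the Untreated, PDL1, OX40 and PDOX libraries and 77.4, 57.4, 60.4 and 59.3 in effector CD8 cells. Eef1b2 and Eef1g, subunits of its exchange factor, changed by −1.28 and −1.18 in CD8 and by −1.07 and −1.02 in CD4 cells.

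Initiation factors mostly stayed under the threshold. Of 38 tested, 10 fell and 1 rose in CD8 cells, and 7 fell and 1 rose in CD4 cells, with median log2 changes of −0.23 and −0.24. This was 26.3% and 18.4% lower, beside 14.8% and 9.58% of all genes. These calls rest on TMM scaling, and 3 of the 10 and 2 of the 7 were also lower per 10000 UMIs in every library. Eif4h, a cofactor of the RNA helicase of initiation, was the factor that rose, by 0.40 in CD8 and 0.91 in CD4 cells, while Eif3e (−0.77 and −0.85) and Eif4a2 (−0.93 and −0.57) fell in both. Of 7 other transcripts known for a pyrimidine tract at the start, 4 fell and 1 rose in each lineage. Tpt1 changed by −1.06 and −1.07 and the nucleolar chaperone Npm1 by −1.17 and −1.07. Vim, which encodes an intermediate filament protein, rose by 1.53 and 1.70.

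Of 26 genes of ribosome biogenesis tested, 15 fell in CD8 and 4 in CD4 cells, and none rose in either. This was 57.7% and 15.4% lower, beside 14.8% and 9.58% of all genes, and 4 of the 15 and 3 of the 4 were also lower per 10000 UMIs in every library. Fbl, which methylates ribosomal RNA, changed by −1.43 and −0.98, and Nop10, of the particles that modify uridines in it, by −0.90 and −0.57. The mitochondrial ribosome has its own proteins, and of 67 tested, 9 fell and 2 rose in CD8 cells and 2 fell and 3 rose in CD4 cells, with medians of −0.15 and −0.00. The lower ones made up 13.4% and 2.99%, no more than the 14.8% and 9.58% of all genes, and 1 of the 9 and 2 of the 2 were also lower per 10000 UMIs in every library. Mrpl23 (−1.31 and −1.05) and Mrpl30 (−0.70 and −0.90) fell in both lineages, and Mrpl18 rose in both (0.39 and 0.69). Of the 3 regulators tested, none passed the threshold.

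**Figure D4:**
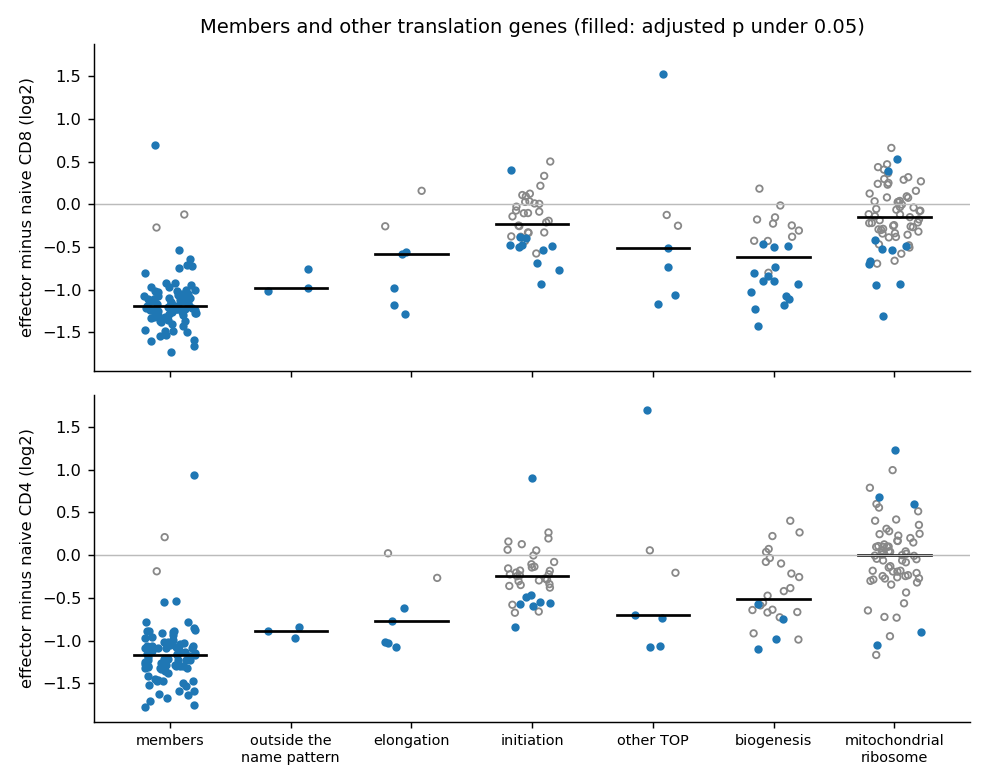
Log2 change from naive to effector CD8 (top) and CD4 (bottom) cells, with 1 point per gene; filled points had an adjusted p under 0.05 and black lines are medians. The members have medians of −1.19 and −1.18, and the mitochondrial ribosomal proteins −0.15 and −0.00.

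Naive CD8 cells held slightly more member UMIs than naive CD4 cells. The members' log2 difference was above 0 for 84 of 84 members tested, with a median of 0.29 beside 0.02 for all genes. The test called 2 members higher, Rpl6l and Rpl7a (0.41 and 0.43, adjusted p = 0.032 and 0.043, edgeR quasi-likelihood test with Benjamini-Hochberg adjustment), against 3.28% of all genes, and 0 lower, against 2.38%, and 37 members were at an unadjusted p under 0.05. The count moved between 0 and 61 with the processing. Without the Untreated library 58 members were higher, and without the OX40 or the PDOX library 0 were. Without TMM factors the members' median was 0.13 and that of all genes −0.15, and 80 of 84 members were above 0. The split over all genes was then 111 higher and 347 lower, against 158 and 115.

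Nearly all members were lower in monocytes than in naive CD4 cells. Of 83 members tested, 80 were lower in monocytes, against 24.8% of all genes, and 1 was higher, against 28.4%, with a median log2 difference of −1.37. Rpl12 held 47.2, 49.0, 48.9 and 48.8 UMIs per 10000 in naive CD4 cells of the Untreated, PDL1, OX40 and PDOX libraries and 6.52, 8.77, 6.70 and 7.29 in monocytes, a log2 difference of −2.96 (SE 0.11). Rplp1 followed with −2.13. Rpl10, which takes part in the last step of large subunit assembly, differed by −0.30 only, and was second in UMIs among the members in monocytes but number 44 in naive CD8 cells. Rps27l was the member that was higher in monocytes, with 6.00, 3.85, 3.20 and 2.40 UMIs per 10000 against 0.888, 0.976, 1.13 and 0.817 in naive CD4 cells (log2 difference 1.65, SE 0.22, adjusted p = 1.8e-08, edgeR quasi-likelihood test with Benjamini-Hochberg adjustment). Rpl36al, with −0.17 (SE 0.13), and Rpl7l1, with 0.07 (SE 0.38), did not pass the threshold. Without TMM factors the median of all genes moved to 0.24 and that of the members to −1.07, 79 members were lower, and over all genes 837 were higher and 430 lower, against 685 and 598.

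Against effector CD8 cells, 40 of 82 members tested were lower in NK cells, against 10.7% of all genes, with a median log2 difference of −0.41. Rpl10 was the member that was higher (0.45, SE 0.14, adjusted p = 0.020 with edgeR and Benjamini-Hochberg adjustment), against 9.95% of all genes, with 49.4, 34.6, 34.9 and 38.4 UMIs per 10000 in NK cells of the 4 libraries and 38.1, 28.3, 24.8 and 25.6 in effector CD8 cells. Each NK value was above the effector value of its library. Without the OX40 library, which held 30 of the 65 NK cells, 10 members were lower, without the PDOX library 25, and with stricter gates 6. The Rpl10 call was lost without the Untreated, the OX40 or the PDOX library.

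Against naive CD4 cells, 53 of 83 members tested were lower in B cells, against 15% of all genes, and 0 were higher, against 14.7%. The fit called 65 members at an unadjusted p under 0.05, and the median log2 difference was −0.42. Without the Untreated library 11 members were lower, and without the PDL1 library 22. The stalk protein Rplp0 had the largest difference, −1.09 (SE 0.13), with 103, 90.0, 88.2 and 100.4 UMIs per 10000 in naive CD4 and 54.1, 49.7, 33.5 and 45.1 in B cells. Its rank among the members was 6 in naive CD8 cells and 37 in B cells.

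Between the libraries, the members' share in naive cells was highest in the OX40 library and lowest in the Untreated library in both lineages. In naive CD8 cells it was 47.4% (exact 95% binomial interval 47.3 to 47.5) in the Untreated, 48.8% (48.8 to 48.9) in the PDL1, 51.0% (50.9 to 51.1) in the OX40 and 49.0% (48.9 to 49.1) in the PDOX library. In naive CD4 cells the OX40 library was above the Untreated library by 5.12 points, the PDL1 library by 1.15 and the PDOX library by 2.0. These intervals cover counting error only, with no replicate of any treatment.

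Single members differed between libraries in a way that followed their size. Among members with at least 200 UMIs over both libraries, 18 of 82 in naive CD8 and 20 of 81 in naive CD4 cells had a ratio over 5/4 or under 4/5 between the OX40 and the Untreated library, against 29.2% and 32% of all genes with that many UMIs. For the PDL1 library it was 5 of 82 and 5 of 81, against 18.4% and 18.7%, and for the PDOX library 4 of 81 in each gate, against 19.7% and 17.3%. The members' counts were not above these shares, and all genes are mostly less abundant than the members. Of these members, 15 of 18 and 18 of 20 were higher in the OX40 library, while over all genes 95 were higher and 219 lower in naive CD8 cells and 51 and 61 in naive CD4 cells. Per 10000 member UMIs in place of all UMIs, 13 members were higher and 10 lower in naive CD8 cells, and 12 and 10 in naive CD4 cells.

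Those that were higher in the OX40 library were mainly members with short coding sequences. Rps28, of 207 coding bases, held 112.8 UMIs per 10000 in naive CD8 cells of the OX40 library and 50.5 in the Untreated library, a ratio of 2.24 (exact 95% interval 2.16 to 2.31), and the ratio was 2.36 in naive CD4 cells. Rpl38, of 210 bases, had a ratio of 1.86 in naive CD8 cells, Rps27, of 252 bases, 2.02, Rps29, of 285 bases, 1.81, and Rpl41, the shortest member with 138 bases, 1.45. Rpl35, of 369 bases, had ratios of 2.08 and 2.29 in naive CD8 and CD4 cells. At the long end, Rplp0, of 951 bases, had a ratio of 0.783 in naive CD8 cells, and Rpl15, of 612 bases, 0.758.

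Over the 81 members with a coding length (GENCODE M39) and enough UMIs, Spearman's rho between length and the ratio of the OX40 to the Untreated library was −0.91 in naive CD8 cells, and −0.89 over 80 members in naive CD4 cells. For the PDL1 library rho was −0.87 and −0.81, with smaller ratios, and for the PDOX library −0.02 and −0.11. Members under 350 coding bases had a median OX40 ratio of 1.56 in naive CD8 cells, and longer ones 0.941. Among genes that are no members, rho was −0.28 for the OX40 library in naive CD8 cells, and the median ratio was 1.06 under 350 bases and 0.897 above. These points share their 2 libraries, and the comparisons share the Untreated library, so rho is a description. The relation was seen after the ratios had been computed, and its part in the OX40 library's higher share was not tested.

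In the other gates too, members under 350 coding bases had median OX40 ratios of 1.14 in effector CD8, 1.66 in NK, 1.72 in B cells and 2.05 in monocytes, and longer members 0.758, 0.933, 0.932 and 1.11. In effector CD4 cells the medians were 1.72 and 1.32, and 37 of 63 longer members were over a ratio of 5/4 there. Between gates of the same libraries length had little to do with the change. The median log2 change from naive to effector CD8 cells was −1.26 in the 18 members under 350 bases and −1.16 in the 65 longer ones, with a rho of 0.18.

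A pair of near-copies differed most between the OX40 and the Untreated library. Rps27rt, a retrogene of Rps27 with 252 coding bases, held 17.95, 23.7, 80.0 and 21.2 UMIs per 10000 in naive CD8 cells of the Untreated, PDL1, OX40 and PDOX libraries, a ratio of 4.46 (4.23 to 4.70) for the OX40 library. It took between 28.3% and 30.2% of the UMIs of Rps27rt and Rps27 together in the 7 gates of the OX40 library, and at most 22.5% in any gate of the others. Rpl6l, a copy of Rpl6, went the opposite way, with 9.80, 5.07, 2.81 and 3.84 UMIs per 10000 in naive CD8 cells, and the Untreated library was the highest in each of the 7 gates. How reads shared by such copies were assigned was not given in the sources used here, so that both are uncertain.

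**Figure D5:**
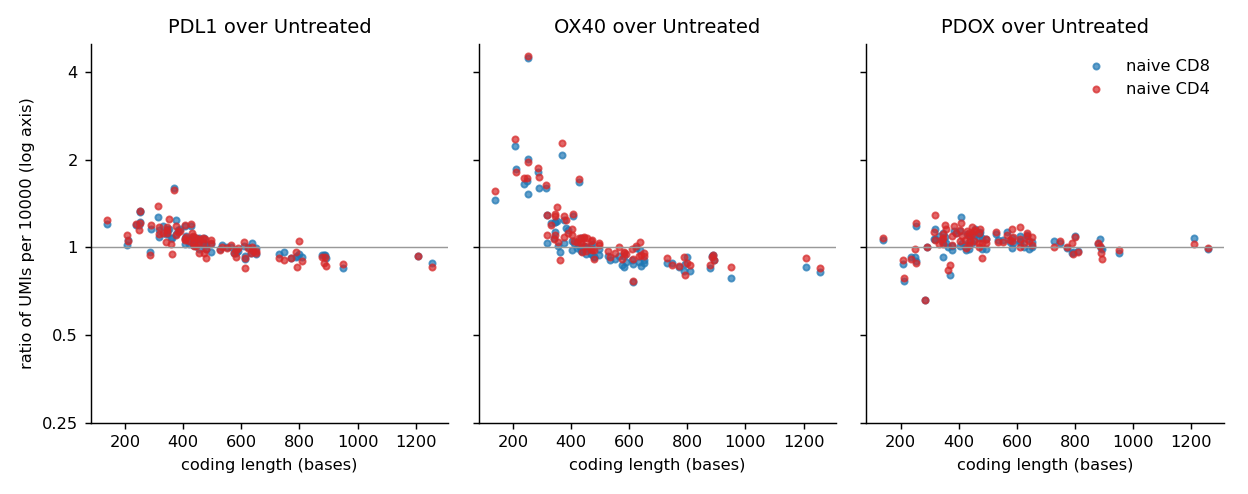
Ratio of UMIs per 10000 between each treated library and the Untreated library (vertical log axis) against the coding length of each member (horizontal axis, bases), in naive CD8 and naive CD4 cells; Rpl6l has no coding length and is not drawn. In the OX40 panel the members under 350 bases have a median ratio of 1.56 in naive CD8 cells, and in the PDOX panel of 1.05.

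In the PDOX library, 57 of 81 members in naive CD8 and 64 of 81 in naive CD4 cells had a ratio over 1. The members' median ratio was close to that of all genes, 1.045 beside 1.026 in naive CD8 and 1.053 beside 1.027 in naive CD4 cells. Scaled to member UMIs in place of all UMIs, 47 of 81 members in naive CD8 and 45 of 81 in naive CD4 cells were over 1. Rpl6l, Rps29 and Rpl38 had the lowest ratios in both gates. Rps29 had a ratio of 0.659 (0.633 to 0.685) in naive CD8 and 0.658 in naive CD4 cells, and Rpl38 of 0.769 and 0.788. Rpl27 had the highest ratio in naive CD8 cells, 1.27 (1.198 to 1.34), and Rpl36al in naive CD4 cells, 1.29 (1.08 to 1.54). In the PDL1 library Rpl35 was highest, with ratios of 1.59 (1.52 to 1.67) and 1.57, followed by Rps27rt with 1.32 and 1.33 and Rpl36 with 1.27 and 1.38, and Rpl6l was lowest, with 0.517 and 0.477. With 1 library for each treatment these are differences between libraries.

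The presence of a pyrimidine run anywhere in the window around the start did not divide the members by their change. The median log2 change in CD8 cells was −1.22 in 48 members with a run of at least 8 bases and −1.10 in 15 without, and in CD4 cells −1.22 and −1.16. Rps27l, which rose, and Rpl36al, which fell least, both carry a run in the window, beginning at positions −22 and 29. A run in the window need not lie at the start itself. These values therefore cannot compare members with and without a tract at the start.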

How the data were processed

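Libraries were made by the authors with a Chromium 3′ kit and processed with Cell Ranger, and the deposited values are raw UMI counts. The settings used for reads that match several genes were not given in the sources used here. The submitters' processing notes name Seurat 2 and mm10. The members and gene lists were chosen with earlier results of these data known. The authors excluded ribosomal genes from their own analysis, while the deposited matrices hold them.

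Cells with at least 200 genes other than ribosomal, mitochondrial and hemoglobin genes were kept, and gates were set by summed UMIs of 37 marker genes, which were left out of the tests but count in the library sizes. Doublets were limited by requiring few UMIs of other lineages, and no doublet caller was run. Counts were summed per library and gate, where the gate held at least 5 cells. edgeR 4.0.16 (R 4.3.3) was run on these sums with its own expression filter, TMM scaling, the library as a block and its quasi-likelihood test. P-values were adjusted by Benjamini-Hochberg over all genes tested, and genes were called at an adjusted p under 0.05. Standard errors are the log2 change divided by the square root of the test's F statistic. All gates of a library come from the same sample, which gives the pairing. P-values therefore rest on how the differences between gates vary from library to library. The block takes out the level of each library, and the libraries differ in treatment. The fits were tested on simulated counts with planted changes of 1 on the log2 scale. These counts came from a pooled profile without gate differences, with changes of either sign planted in genes drawn at random. In the data the members fall as a block, so the simulation cannot show errors that this brings to the scaling. For effector against naive cells 74% of these were recovered in CD8 and 40.5% in CD4 cells, and 23.5% for the difference between the lineages. In the other fits 51.5% to 81% were recovered. Each fit called 1 to 10 unchanged genes.

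Shares of UMIs were compared by an exact two-sided sign-flip test over the 4 libraries. Between treatments, members with at least 200 UMIs were compared as ratios with exact conditional 95% intervals, which cover counting error only. Named members were the 10 with the most UMIs in naive CD8 cells, all paralogs, the 5 highest and 5 lowest changes among those called and of 1 direction in each library, the 3 highest and lowest ratios per treatment, the stalk proteins and Rpsa; some others are named after their values were seen. A few genes that these rules name are not reported here. Coding lengths are those of canonical transcripts in GENCODE M39 on GRCm39, for 86 of 87 members. Alternatives were another scaling, test or filter, no block, stricter or smaller gates, cells thinned to 1500 UMIs, upper limits on cells, and leaving out each library.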

Additional observations from a re-analysis of the deposited data

Results flagged for a closer look

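Members were also counted in barcodes and cells that entered no comparison. In barcodes with fewer than 200 other genes, members held 0.333% of UMIs in the Untreated, 0.664% in the PDL1, 0.796% in the OX40 and 0.392% in the PDOX library, while hemoglobin genes held between 93.7% and 96.2%. In kept cells of no gate, members held 36.6%, 37.6%, 41.2% and 33.7% of UMIs in the same order, and the OX40 library was again the highest.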

How the results depend on the processing

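The falls from naive to effector cells held in 15 settings, with 79 to 81 members lower in CD8 and 77 to 81 in CD4 cells, and medians from −1.58 to −0.77 and from −1.40 to −0.65. The smaller comparisons did not. In naive CD8 against naive CD4 cells, 2 members were higher, against 1 without TMM factors, 5 with the library size of other genes, 0 without the filter, 14 with DESeq2, 50 with strict gates, 57 with small gates, 61 in thinned cells, 9 with cell limits, and 0 to 58 when a library was left out. Without the replicate block 0 were higher. In NK cells the 1 higher member was lost (0) with the library size of other genes, without the filter and without the replicate block, and 0 to 1 remained when a library was left out. The 40 lower members became 62 with the library size of other genes, 78 without the filter, 17 without the replicate block, 6 with strict gates, 13 in thinned cells, and 10 to 43 when a library was left out. In B cells thinned cells gave 1 higher and 33 lower members in place of 0 and 53, and leaving out a library gave 11 to 68 lower. In monocytes 2 members were higher without the filter, in place of 1. In thinned cells 2 members, in place of 0, differed between the CD8 and CD4 changes.

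The difference of the members' share between effector and naive CD8 cells was −24.7 points with strict gates, in place of −19.8. Between treated and Untreated libraries, the difference in naive CD8 cells was 1.65 points for PDL1 with strict gates and 1.82 in thinned cells (main value 1.40), 3.33 for OX40 with strict gates (3.57), and 0.909 for PDOX with strict gates and 1.14 in thinned cells (1.60). In naive CD4 cells it was 1.77 for PDL1 in thinned cells (1.15), and 2.41 for PDOX with strict gates and 2.43 in thinned cells (2.0). The log2 change of Rpl7l1, not called in either lineage, turned to 0.16 in CD8 and 0.23 in CD4 cells without TMM factors, and in CD4 cells ran from −0.33 to 0.0031 when a library was left out. Among the other values for single members, 794 kept their direction and call and 13 lost the call. The cause of these changes was not tested. Gates of 5 cells and 1 library for each treatment limit the precision.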
